A study of Mus musculus with 8 samples.

Results

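The mevalonate pathway enzymes were described step by step from the raw counts of 9 genes of a table that lists 56748 genes, chosen by their gene names: Acat2, Hmgcs1, Mvk, Pmvk, Mvd, Idi1, Fdps, Fdft1 and Ggps1. All 9 passed the filter on low counts, and they stand among the 14279 genes tested. RNA sequencing was carried out on mouse primary hepatocytes in 4 groups of 2 libraries: wild-type and Yap/Taz HepKO cells, each cultured for 24 h on a soft (1 kPa) or a stiff (20 kPa) collagen-coated hydrogel. All donors were Yap fl/fl and Taz fl/fl mice on a C57BL/6J background. Their listed age was 7 to 8 weeks, which the study's methods give for the virus injection. For hepatocyte isolation the methods give 8 weeks. The knockout was made with intravenous AAV8-TBG-Cre virus 10 days before the cells were taken, and the animals called wild-type carried the same floxed alleles and received AAV8-TBG-Null. The TBG promoter drives Cre in hepatocytes, and other liver cells are not its target, and the study's methods also describe breeding with a tdTomato reporter line. The sources disagree on the sex of the animals, since the series' design names females and the sample protocol and the methods name males. The labels do not say whether the 2 libraries of a group came from separate animals or cultures, so every p-value below measures the spread between these libraries, which may be technical.

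The mevalonate pathway builds isoprenoids and sterols from acetyl-CoA. Cytosolic thiolase (Acat2) and HMG-CoA synthase (Hmgcs1) make HMG-CoA, a reductase turns it into mevalonate, and mevalonate kinase (Mvk), phosphomevalonate kinase (Pmvk) and mevalonate diphosphate decarboxylase (Mvd) convert mevalonate into isopentenyl diphosphate. Isopentenyl diphosphate isomerase (Idi1) makes its isomer, farnesyl diphosphate synthase (Fdps) condenses these units, and the product is passed either to squalene synthase (Fdft1), the first step committed to sterols, or to geranylgeranyl diphosphate synthase (Ggps1), which makes the lipid used to anchor small GTPases to membranes. In liver, many of these genes are known targets of the sterol-regulated transcription factor SREBP2, and YAP and TAZ, encoded by Yap1 and Wwtr1, are co-activators that respond to the stiffness of the substrate.

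Promoter sequence from RefSeq, 250 bases before to 50 bases after a transcript start on GRCm38.p6, was found for 7 of the 9 genes, in 8 windows because Pmvk has 2 listed starts. The 5 windows below show genes that rose on the stiff hydrogel in wild-type cells (Hmgcs1, Acat2, Mvk) beside genes that did not (Pmvk, Ggps1). They lie at chr13:119690101-119690400 on the plus strand (Hmgcs1), chr17:12960676-12960975 on the minus strand (Acat2), chr5:114444019-114444318 on the plus strand (Mvk), chr3:89454291-89454590 on the plus strand (Pmvk, the first of its starts) and chr13:14063439-14063738 on the minus strand (Ggps1). Capitals mark matches, on either strand, to 6 motifs: TCACNCCAC and CACCCCAC (forms of the sterol response element, which can overlap each other), CCAAT (the NF-Y box), GGGCGG (the GC box of Sp1), CACGTG (an E-box) and GGAATG (the TEAD motif).
Hmgcs1: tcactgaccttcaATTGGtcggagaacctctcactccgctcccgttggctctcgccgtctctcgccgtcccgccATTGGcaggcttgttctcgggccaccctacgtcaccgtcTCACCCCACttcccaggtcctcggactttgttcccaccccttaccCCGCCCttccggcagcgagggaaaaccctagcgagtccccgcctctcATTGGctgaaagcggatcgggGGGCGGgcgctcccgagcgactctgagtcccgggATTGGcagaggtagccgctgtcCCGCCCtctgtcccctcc
Acat2: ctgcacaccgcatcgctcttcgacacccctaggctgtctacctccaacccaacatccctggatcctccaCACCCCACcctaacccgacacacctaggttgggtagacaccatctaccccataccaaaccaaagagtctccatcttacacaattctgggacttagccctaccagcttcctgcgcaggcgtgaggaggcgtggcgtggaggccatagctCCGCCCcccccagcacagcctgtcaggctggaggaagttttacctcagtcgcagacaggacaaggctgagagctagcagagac
Mvk: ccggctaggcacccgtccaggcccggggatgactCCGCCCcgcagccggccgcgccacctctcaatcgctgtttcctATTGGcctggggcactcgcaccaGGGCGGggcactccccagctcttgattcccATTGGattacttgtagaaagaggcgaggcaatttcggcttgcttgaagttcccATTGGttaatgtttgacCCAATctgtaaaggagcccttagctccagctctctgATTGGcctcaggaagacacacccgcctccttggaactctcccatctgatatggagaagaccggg
Pmvk: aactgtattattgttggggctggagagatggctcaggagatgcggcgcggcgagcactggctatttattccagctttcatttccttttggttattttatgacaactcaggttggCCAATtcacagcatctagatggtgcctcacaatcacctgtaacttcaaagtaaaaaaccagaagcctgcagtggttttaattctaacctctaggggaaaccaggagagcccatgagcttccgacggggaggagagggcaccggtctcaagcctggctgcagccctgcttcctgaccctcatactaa
Ggps1: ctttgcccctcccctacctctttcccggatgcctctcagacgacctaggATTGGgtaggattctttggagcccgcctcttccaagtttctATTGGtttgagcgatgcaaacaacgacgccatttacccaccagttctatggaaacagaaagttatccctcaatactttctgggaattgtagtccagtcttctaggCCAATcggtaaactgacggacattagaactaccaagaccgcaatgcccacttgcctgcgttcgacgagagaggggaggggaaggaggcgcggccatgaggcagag
The Hmgcs1 window held 1 match to TCACNCCAC at offset -137 from the start, which contains its single CACCCCAC match at offset -136, together with 4 CCAAT and 3 GGGCGG matches. The Acat2 window held 1 CACCCCAC match at offset -181 and 1 GGGCGG match. No window of Mvk, Pmvk, Mvd, Idi1 or Ggps1 held either sterol response element form. CCAAT had 5 matches in the Mvk window, 3 in Ggps1, 2 each in Mvd and Idi1, 1 in the first Pmvk window and 0 in the second. GGGCGG had 2 matches in Mvk and 1 each in Mvd and Idi1. Neither CACGTG nor GGAATG was present in any of the 8 windows. Among 32851 mouse promoters of the same length, TCACNCCAC was found in 1.24%, CACCCCAC in 2.87%, CCAAT in 37.4%, GGGCGG in 35.7%, CACGTG in 7.15% and GGAATG in 14.7%. These matches describe the letters of a window and do not show that a factor binds there. Which starts these cells use was not tested. The promoter in use may lie outside the windows, which bears most on Pmvk with its 2 listed starts.

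The libraries held between 18324083 and 26442310 counts. The targeted genes were checked first. Yap1 counted 2591 and 1720 in wild-type soft, 2913 and 2651 in wild-type stiff, 747 and 640 in knockout soft and 606 and 634 in knockout stiff. Its log2 fold change, knockout minus wild type, was -1.68 on soft and -2.20 on stiff. Wwtr1 counted 1103 and 748 in wild-type soft, 1325 and 1284 in wild-type stiff, 410 and 333 in knockout soft and 335 and 277 in knockout stiff, with log2 fold changes of -1.37 and -2.13. Both genes were lower in all 4 knockout libraries, without reaching 0. The hepatocyte markers (8 listed, 8 tested) summed to 88286 to 88996 normalized CPM (reads as a share of the library total, scaled by the TMM method) in wild-type soft, 91574 to 93116 in wild-type stiff and 61010 to 61634 in the knockout libraries. Of these markers 1 rose and 2 fell on stiff in the wild type, and in the knockout against the wild type on stiff 2 rose and 3 fell. Markers counted as risen or fallen were called by the thresholds given below. Of all genes tested, 10.0% rose and 9.26% fell in the first comparison, and 13.7% rose and 15.0% fell in the second. Alb made up between 89.3% and 93.8% of the hepatocyte sum in each library. Hnf4a, a hepatocyte transcription factor, went the other way, with a log2 fold change of 1.17 in the knockout against the wild type on stiff. The summed levels of stellate, endothelial and Kupffer cell markers were ordered the opposite way to most of the pathway. The stellate cell and fibroblast list summed to 34.3 CPM in both wild-type soft libraries, 21.8 to 24.1 in wild-type stiff, 47.7 to 48.9 in knockout soft and 50.0 to 52.5 in knockout stiff. The endothelial sums were 51.9 to 57.3, 36.7 to 37.1, 69.0 to 69.4 and 70.1 to 73.9 CPM in the same order of groups, and those of Kupffer cells and macrophages were 61.6 to 62.8, 42.6 to 48.4, 85.9 to 86.2 and 86.4 to 86.7 CPM. Cholangiocyte markers summed to 548 to 584, 599 to 602, 344 to 348 and 320 to 333 CPM. Spp1 made up between 87.4% and 92.9% of this sum in each library. In the wild type 1 of 4 tested genes (Krt19) was higher on stiff, beside 10.0% of all genes. Epcam, at 6 to 24 counts, alone went the other way. Its log2 fold changes were -0.37 there and 0.84 in the knockout against the wild type on stiff, neither called. The defining markers Lrat (0 to 4 counts), Krt7 (0 to 3) and Cftr (0 in all 8 libraries) were at or near 0. In the wild type on stiff against soft, 3 of 7 tested stellate, 3 of 6 endothelial and 3 of 6 Kupffer markers fell, beside 9.26% of all genes. In the knockout against the wild type on stiff 6, 5 and 6 of them rose, beside 13.7% of all genes. The stellate list had 1 exception, Col1a1, which went the same way as the pathway, with log2 fold changes of 0.78 and -0.62 in these comparisons, both called. The part of these markers in the pathway's differences was not tested, and in such bulk samples fewer cells of a type and less RNA per cell cannot be told apart.

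In wild-type hepatocytes, 6 of the 9 enzymes rose on the stiff hydrogel and 0 fell: Acat2, Hmgcs1, Mvk, Mvd, Idi1 and Fdps. A gene was called at an adjusted p under 0.05 with an absolute log2 fold change over 0.5 (the quasi-likelihood test of edgeR, Benjamini-Hochberg adjusted over the whole table). Of all 14279 genes, 10.0% were called higher here and 9.26% lower. The median log2 fold change was 0.70 over the 9 enzymes and -0.01 over all genes tested. The rise was steepest for Fdps, at 2.82-fold, and lay between 1.59-fold and 1.87-fold for the other five. The enzymes not called stood in the middle of the pathway (Pmvk) and at its branch point (Fdft1 and Ggps1). Fdft1 was higher by 0.43 on the log2 scale (adjusted p = 8.79e-07, edgeR) and missed only the fold-change threshold. Pmvk (0.0015) and Ggps1 (0.02) had values near 0.

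**Figure D1:**
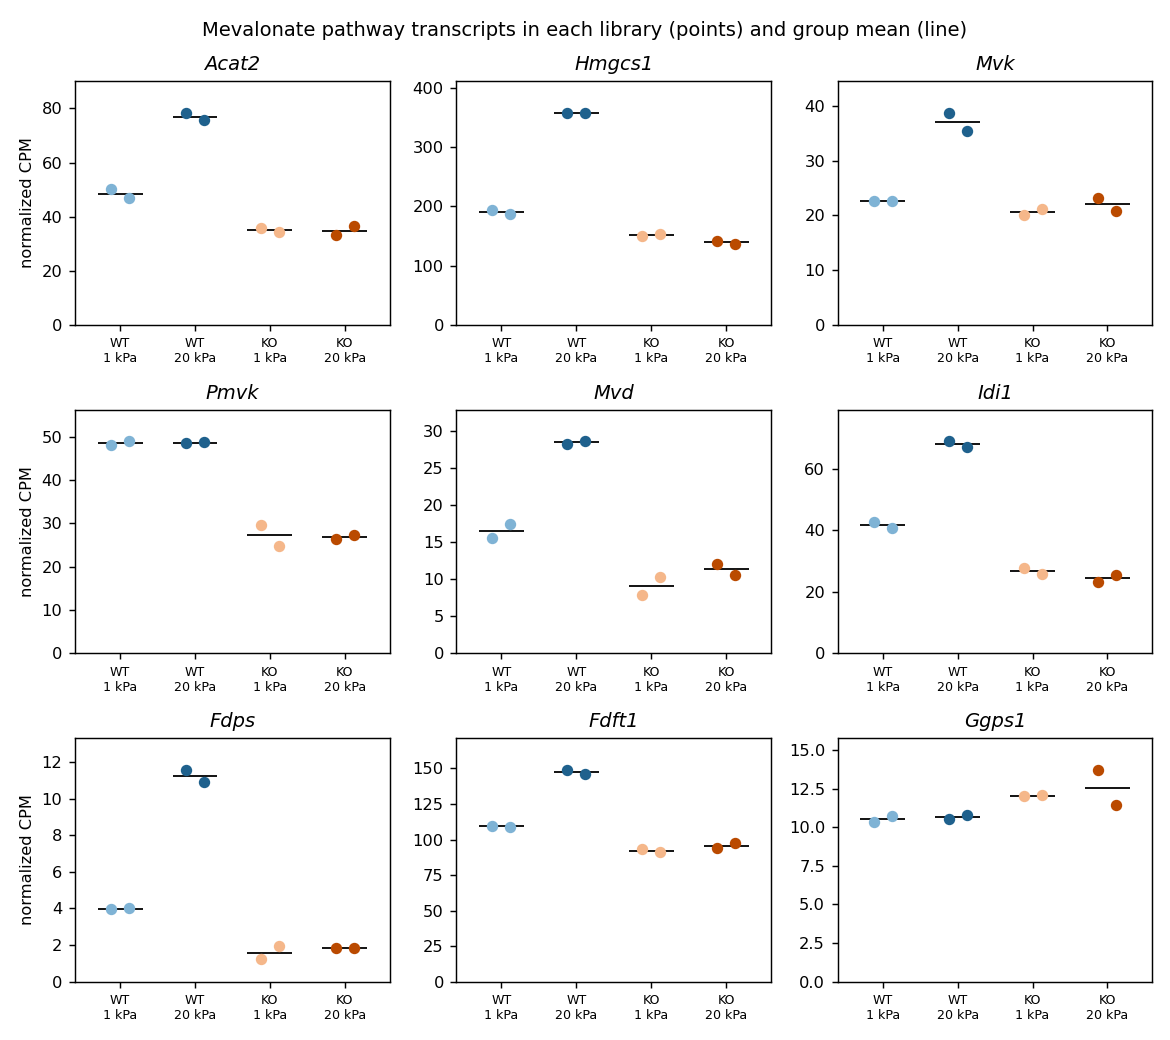
Normalized CPM (y axis, from 0 in each panel) of the 9 enzymes in the 4 groups (x axis), with a point for each library and a line for the mean of 2. The wild-type stiff libraries stand above all others for Acat2, Hmgcs1, Mvk, Mvd, Idi1, Fdps and Fdft1. How often this holds over all genes was not computed. Pmvk is level across hydrogels and Ggps1 is highest in the knockout libraries.

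The first enzymes of the pathway make HMG-CoA. Acat2 (ENSMUSG00000023832) had 50.2 and 46.8 normalized CPM in wild-type soft, 78.4 and 75.7 in wild-type stiff, 35.7 and 34.3 in knockout soft and 33.3 and 36.4 in knockout stiff. The wild-type stiff libraries were the highest, the wild-type soft libraries came next, and the knockout groups overlapped each other below them. Its log2 fold change on stiff against soft was 0.67 in the wild type (standard error 0.0638, adjusted p = 1.23e-07, edgeR) and -0.01 in the knockout (95% interval -0.15 to 0.14). Of the 64-base windows of its longest GENCODE transcript, 43.0% also occur in Acat3, so the count of Acat2 is uncertain if reads matching both genes were divided or dropped. Acat3 itself counted 2418 and 1520 in wild-type soft and 1510 and 1529 in wild-type stiff, a log2 fold change of -0.24, so the listed paralog did not share the direction.

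Hmgcs1 (ENSMUSG00000093930), the most highly expressed of the 9 in every group, had 193.9 and 188.0 CPM in wild-type soft and 358 in both wild-type stiff libraries. It had 149 and 153 CPM in knockout soft and 142 and 137 in knockout stiff. None of the 4 groups overlapped. The log2 fold change on stiff was 0.91 in the wild type (standard error 0.0432, adjusted p = 8.18e-12, edgeR). In the knockout it was -0.11 (95% interval -0.21 to -0.02, unadjusted p = 0.0191, adjusted p = 0.61, edgeR), which did not pass the test. An antisense gene, Gm48342, overlaps it and had between 0 and 2 counts.

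The next enzymes carry mevalonate to isopentenyl diphosphate. Mvk (ENSMUSG00000041939) had 22.7 CPM in both wild-type soft libraries, 38.8 and 35.4 in wild-type stiff, 20.1 and 21.1 in knockout soft and 23.3 and 20.8 in knockout stiff. Only the wild-type stiff group stood apart, since the wild-type soft libraries lay within the range of knockout stiff and the knockout groups overlapped. Its log2 fold change on stiff was 0.71 in the wild type (standard error 0.0861, adjusted p = 2.60e-06, edgeR) and 0.10 in the knockout (95% interval -0.09 to 0.29). Mmab, a gene of cobalamin metabolism, lies 208 bases from Mvk on the other strand. It had a wild-type log2 fold change of 0.31 (adjusted p = 0.0448, edgeR), under the fold-change threshold for a call.

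Pmvk (ENSMUSG00000027952) did not follow its neighbours in the pathway. It had 48.2 and 48.9 CPM in wild-type soft, 48.5 and 48.7 in wild-type stiff, 29.6 and 24.8 in knockout soft and 26.3 and 27.3 in knockout stiff. The groups overlapped across hydrogels within each genotype and were separated between genotypes. The wild-type log2 fold change on stiff against soft was 0.0015 (95% interval -0.15 to 0.16), and in the knockout it was -0.03 (95% interval -0.20 to 0.14). The wild-type interval leaves out the fold change of each of the 6 enzymes that rose.

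Mvd (ENSMUSG00000006517) had 15.6 and 17.4 CPM in wild-type soft, 28.4 and 28.7 in wild-type stiff, 7.88 and 10.2 in knockout soft and 12.1 and 10.5 in knockout stiff. The order was wild-type stiff, wild-type soft, knockout stiff and knockout soft, with no overlap, although the lowest knockout stiff library (10.5) and the highest knockout soft library (10.2) lay close. The log2 fold change on stiff was 0.79 in the wild type (standard error 0.116, adjusted p = 2.31e-05, edgeR). In the knockout it was 0.33 (95% interval 0.05 to 0.61, unadjusted p = 0.0224, adjusted p = 0.61, edgeR), and it did not pass the test. Cyba, 670 bases from Mvd on the same strand, had 28 to 92 counts. On the other strand, 9330133O14Rik lies 203 bases away and had 8 to 28 counts.

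The isomerase and the farnesyl diphosphate synthase supply the branch point. Idi1 (ENSMUSG00000058258) had 42.8 and 40.8 CPM in wild-type soft, 69.0 and 67.2 in wild-type stiff, 27.7 and 25.9 in knockout soft and 23.4 and 25.3 in knockout stiff. The order was wild-type stiff, wild-type soft, knockout soft and knockout stiff, with no overlap. The lowest knockout soft library (25.9) and the highest knockout stiff library (25.3) lay close. Its log2 fold change on stiff was 0.70 in the wild type (standard error 0.0658, adjusted p = 8.95e-08, edgeR) and -0.14 in the knockout (95% interval -0.30 to 0.01). Of its 64-base windows, 29.7% occur in other genes, most of them in Gm13502, and its paralog Idi2 had 0 to 1 counts.

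Fdps (ENSMUSG00000059743) was the least abundant member in CPM in all groups but wild-type stiff, and it had the widest differences between groups. It counted 103 and 72 reads in wild-type soft, 240 and 215 in wild-type stiff, 32 and 39 in knockout soft and 39 and 37 in knockout stiff. These were 3.97 and 3.999, 11.6 and 10.9, 1.25 and 1.94, and 1.83 and 1.83 CPM in the same order. The wild-type groups were separated from each other and from the knockout groups, which overlapped. The log2 fold change on stiff was 1.497 in the wild type (standard error 0.181, adjusted p = 2.42e-06, edgeR). In the knockout it was 0.22, with a 95% interval of -0.31 to 0.76, and the knockout groups summed to 71 and 76 reads. In the reference annotation, 26.7% of the exonic bases of Fdps lie under same-strand exons of Gm43738, a gene at 0 counts in all 8 libraries, so how reads in these bases were assigned bears on the level of Fdps. Rusc1, 276 bases from Fdps on the same strand, counted 138 and 92 in wild-type soft, 225 and 186 in wild-type stiff and 68 to 88 in the knockout libraries. The per-length ratio of Fdps to Rusc1 was 0.993 and 1.04 in wild-type soft, 1.42 and 1.54 in wild-type stiff and 0.560 to 0.763 in the knockout, so the order of the groups was also present within libraries relative to Rusc1.

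At the branch, Fdft1 (ENSMUSG00000021273) had 109.8 and 109.1 CPM in wild-type soft, 149 and 146 in wild-type stiff, 93.2 and 91.3 in knockout soft and 93.9 and 97.4 in knockout stiff. The wild-type stiff libraries were the highest, without overlap. Fdft1 was 0.43 higher on the log2 scale on stiff (SE 0.0481, adjusted p = 8.79e-07, edgeR), which passed the p threshold and was under the fold-change threshold, so Fdft1 was not called. In the knockout the value was 0.05 (95% interval -0.05 to 0.16). Ctsb, on the opposite strand, covers 18.3% of the exonic bases of Fdft1 and counted 20966 to 35829 reads per library, so the count of Fdft1 is uncertain where strand was not used in counting. The study's methods name dUTP in cDNA synthesis, which marks strand, but not whether the counting used it. Ctsb counted 34148 and 23373 in wild-type soft and 22128 and 20966 in wild-type stiff, and the per-length ratio of Fdft1 to Ctsb was 0.123 and 0.124 on soft and 0.205 and 0.201 on stiff.

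Ggps1 (ENSMUSG00000021302), the other branch, had 10.3 and 10.7 CPM in wild-type soft, 10.5 and 10.8 in wild-type stiff, 12.02 and 12.1 in knockout soft and 13.7 and 11.4 in knockout stiff. The hydrogels overlapped within each genotype, and all 4 knockout libraries lay above all 4 wild-type libraries. Its log2 fold change on stiff was 0.02 in the wild type (95% interval -0.25 to 0.29) and 0.06 in the knockout (95% interval -0.20 to 0.32). Within a library, the per-length ratio of Fdft1 to Ggps1 was 12.2 and 11.7 in wild-type soft, 16.3 and 15.5 in wild-type stiff and between 7.85 and 9.79 in the knockout. Arid4b, on the opposite strand, covers 5.44% of the exonic bases of Ggps1 and had 370 to 566 counts.

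In Yap/Taz HepKO hepatocytes, 0 of the 9 enzymes passed the test for stiffness by edgeR, and 0 by DESeq2. At an unadjusted p under 0.05 there were 2, Mvd (higher) and Hmgcs1 (lower), beside 7.54% of all genes tested. Calls were rare in this comparison as a whole, at 0.0140% of genes higher and 0.00700% lower, so the count over the enzymes is near the background. The median log2 fold change was 0.05 over the 9 and 0.01 over all genes tested.

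**Figure D2:**
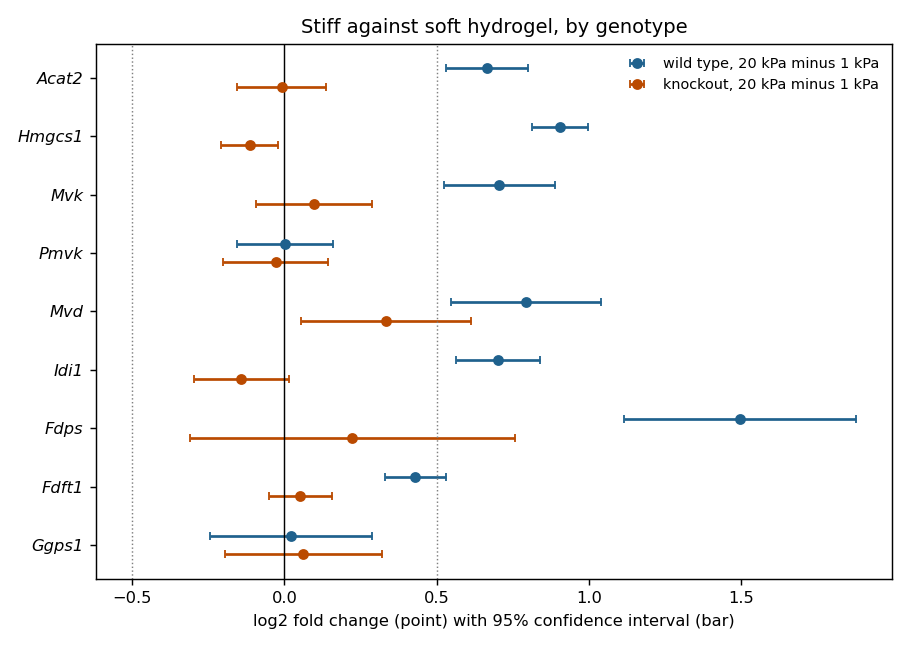
Log2 fold change of each enzyme on 20 kPa against 1 kPa (x axis) in wild-type and knockout hepatocytes, as a point with its 95% confidence interval, with dotted lines at -0.5 and 0.5. In the wild type 6 intervals lie wholly above 0.5, and in the knockout all points lie between -0.14 and 0.33.

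The effects of stiffness in the 2 genotypes were compared by the interaction, the knockout effect minus the wild-type effect. It was called for 5 enzymes, all lower in the knockout, beside 8.21% of all genes called lower and 8.64% called higher. The differences were -1.02 for Hmgcs1 (adjusted p = 5.72e-10), -1.27 for Fdps (adjusted p = 0.00479), -0.84 for Idi1 (adjusted p = 3.12e-06), -0.67 for Acat2 (adjusted p = 2.40e-05) and -0.61 for Mvk (adjusted p = 0.00108), all on the log2 scale by edgeR. Fdps rested on 1 library here: without the second knockout soft library its difference was -0.96 with an adjusted p of 0.0538. For Mvd the difference of -0.46 (95% interval -0.83 to -0.09, adjusted p = 0.0601, edgeR) did not pass, but it did without the second wild-type soft, the first knockout soft or the first knockout stiff library (-0.55, -0.65 and -0.57, adjusted p = 0.037, 0.0149 and 0.0387). Fdft1 had a difference of -0.38 (adjusted p = 0.000369, edgeR), under the fold-change threshold. Pmvk (-0.03, 95% interval -0.26 to 0.20) and Ggps1 (0.04, 95% interval -0.33 to 0.41) had differences near 0.

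Between genotypes, the knockout was already lower on the soft hydrogel for 4 enzymes, Pmvk, Mvd, Idi1 and Fdps, beside 4.65% of all genes called lower and 2.02% called higher. Their log2 fold changes, knockout minus wild type, were -0.83 for Pmvk (adjusted p = 2.69e-07), -0.87 for Mvd (adjusted p = 6.49e-05), -0.64 for Idi1 (adjusted p = 2.02e-06) and -1.34 for Fdps (adjusted p = 0.000255) by edgeR. Acat2 (-0.47), Hmgcs1 (-0.34) and Fdft1 (-0.25) passed the p threshold with changes under 0.5, and Acat2 was called without the second wild-type soft library (-0.52) or without the first knockout soft library (-0.50). Mvk (-0.14, 95% interval -0.33 to 0.05) and Ggps1 (0.20, 95% interval -0.06 to 0.46) did not pass. The median was -0.47 over the 9 enzymes and -0.00031 over all genes.

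On the stiff hydrogel the knockout was lower for 8 of the 9 enzymes, beside 15.0% of all genes called lower and 13.7% called higher. Fdps was 6.14-fold lower (log2 fold change -2.62, adjusted p = 4.00e-09), Idi1 2.80-fold (-1.48, adjusted p = 2.92e-12), Hmgcs1 2.56-fold (-1.36, adjusted p = 1.54e-14) and Mvd 2.51-fold (-1.33, adjusted p = 3.74e-08) by edgeR. Acat2 was 2.21-fold lower, Pmvk 1.81-fold, Mvk 1.68-fold and Fdft1 1.54-fold. Ggps1 had a log2 fold change of 0.24 (95% interval -0.02 to 0.50, adjusted p = 0.123, edgeR). The median was -1.14 over the 9 and 0.01 over all genes. Of the 8, Pmvk had nearly the same value on both hydrogels (-0.83 and -0.86), whereas Mvk was called on the stiff hydrogel and not on the soft one, a difference that is the interaction given above. This comparison shares its wild-type stiff libraries with the stiffness comparison, so its values are not independent of it.

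**Figure D3:**
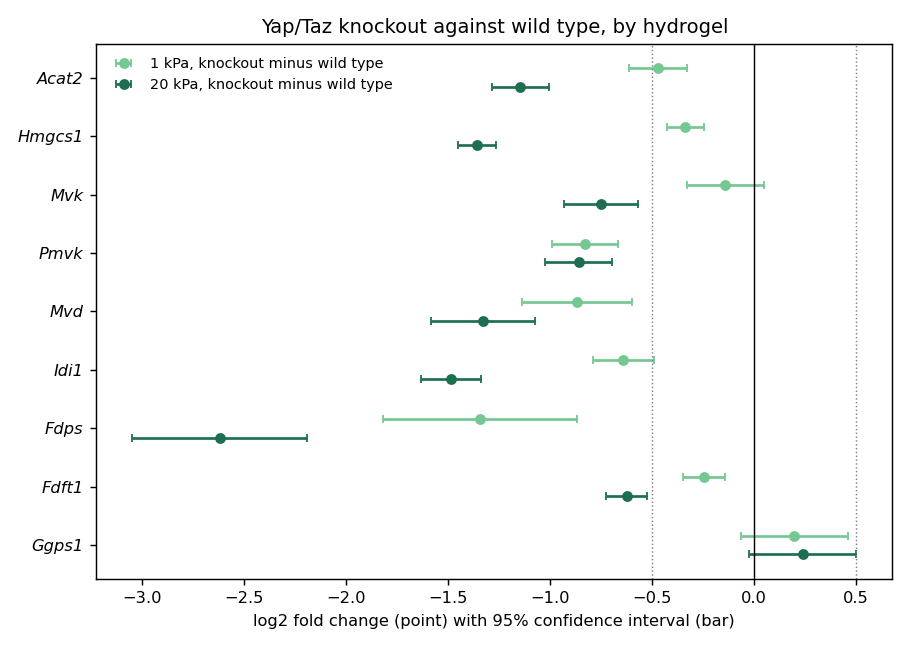
Log2 fold change of each enzyme in knockout against wild-type hepatocytes (x axis) on the soft and the stiff hydrogel, as a point with its 95% confidence interval, with dotted lines at -0.5 and 0.5. The points on 20 kPa lie between -2.62 and 0.24, with Ggps1 alone to the right of 0 on both hydrogels.

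Levels of different enzymes were compared per kilobase of the deposited gene length. In wild-type soft, mean CPM per kilobase fell in the order Hmgcs1 (41.6), Pmvk (28.3), Fdft1 (26.6), Acat2 (19.1), Idi1 (11.9), Mvd (8.88), Mvk (8.49), Ggps1 (2.23) and Fdps (0.947). Hmgcs1 thus had the highest counted level and Fdps the lowest, and the neighbours Mvd and Mvk differed by less than the spread between the Mvd libraries. In wild-type stiff, Hmgcs1 reached 77.9, Fdft1 35.8, Acat2 30.3, Pmvk 28.4, Idi1 19.4, Mvd 15.3, Mvk 13.9, Fdps 2.67 and Ggps1 2.26 CPM per kilobase. Pmvk passed from the second to the fourth place and Fdps rose above Ggps1. In the knockout, Hmgcs1 was again highest (33.0 on soft and 30.4 on stiff) and Fdps lowest (0.379 and 0.434). The deposited length counts all exons of a gene, so a gene with long exons that are seldom used is set too low on this scale. The limits on counting given above for Acat2, Idi1, Fdps and Fdft1 bear on their places here too. For Fdps, 26.7% of the exonic bases lie under exons of Gm43738. Its lowest place and its order against Ggps1 are therefore uncertain if reads in these bases were dropped.

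**Figure D4:**
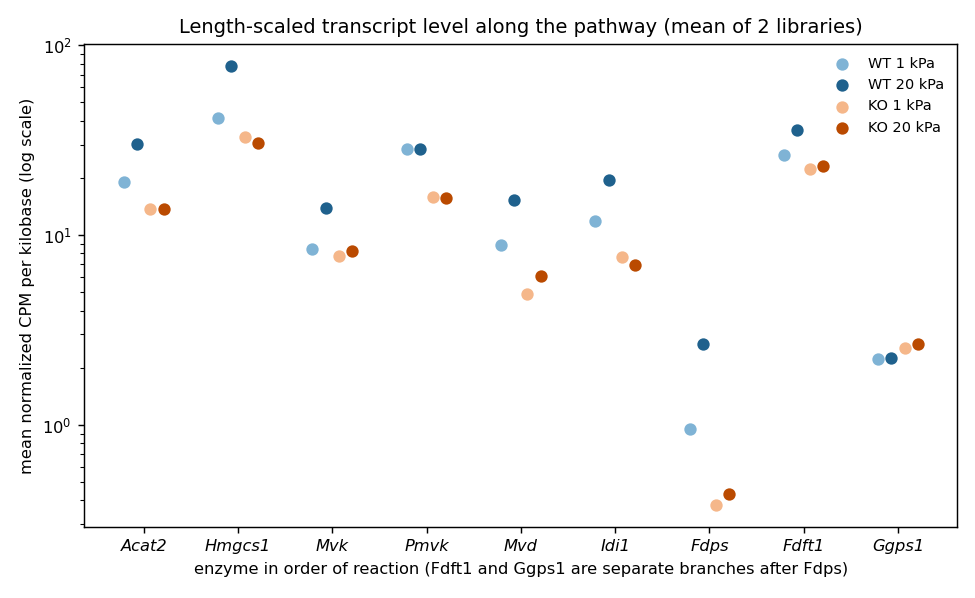
Mean normalized CPM per kilobase of gene length (y axis, log scale) for the enzymes in order of reaction (x axis), with a point for each group of 2 libraries. Hmgcs1 is the highest in each group, at 30.4 to 77.9, and Fdps and Ggps1 stand below all others, at 0.379 to 2.67.

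As a description over 8 libraries that share these 4 groups, Pearson's r of log2 CPM was highest for Acat2 with Fdft1 (0.993) and Acat2 with Idi1 (0.992), and Ggps1 had a negative r with each of the others, from -0.84 with Pmvk to -0.43 with Mvk. Pmvk followed the other seven less closely, with an r from 0.63 with Mvk to 0.90 with Idi1. The genes most like Hmgcs1 outside the pathway were Mogat2, Wsb1, Inhba, Tfrc and Tm4sf1 (r between 0.998 and 0.999, n = 8 libraries), among 1027 genes with an r over 0.95. Those most like Fdps were Polr1e, Nek6, Myo10, Nid1 and Ppp1r13l (r between 0.995 and 0.996, n = 8), among 833 genes. None of these 10 is an enzyme of sterol synthesis.

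The steps after squalene were less uniform. Of 12 tested genes of sterol synthesis from squalene, 5 rose on stiff in the wild type (Cyp51, Nsdhl, Lss, Hsd17b7 and Lbr) and 0 fell, with a median log2 fold change of 0.31. Of all genes tested, 10.0% rose and 9.26% fell here, with a median of -0.01. The highest was Hsd17b7 (1.05, adjusted p = 3.97e-10, edgeR), a ketosteroid reductase of the pathway, with 32.4 and 33.8 CPM on soft and 67.4 and 69.6 on stiff. Its knockout libraries stayed between 24.3 and 26.2 CPM. The lowest was Dhcr7 (-0.35, adjusted p = 0.000144, edgeR), which makes cholesterol in the last step of one of its routes. In the knockout on stiff, 0 of the 12 passed against soft, beside 0.0140% of all genes called higher and 0.00700% lower. On stiff, 5 were lower in the knockout than in the wild type, beside 15.0% of all genes.

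Genes that use isoprenoids had small differences in both directions. Of 18 tested genes of dolichol, ubiquinone and prenylation, 0 were called in the wild type by edgeR, with a median of 0.04, and at an unadjusted p under 0.05 there were 7 higher and 4 lower, beside 48.0% of all genes tested in either direction. The highest was Pdss1 (0.48, adjusted p = 0.074, edgeR), a ubiquinone side-chain synthase, and the lowest was Dolk (-0.35, adjusted p = 0.00884, edgeR), the dolichol kinase. Pdss1 was called without the first wild-type soft library or without the second wild-type stiff library, fits that leave 1 library in a group. How many of all genes those fits call is not given here.

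Sterol-sensing genes did not rise as a list. Of 13 tested, 0 rose and 3 fell on stiff in the wild type (Insig2, Srebf1 and Rnf145), with a median of -0.23. Of all genes tested, 10.0% rose and 9.26% fell, with a median of -0.01. Srebf2, which encodes SREBP2, had the highest value (0.35, adjusted p = 1.46e-05, edgeR, under the fold-change threshold), at 126 and 136 CPM on soft and 166 and 167 on stiff. Insig2, which encodes an endoplasmic reticulum retention protein for SREBP, had the lowest (-0.68, adjusted p = 8.90e-10, edgeR), at 291 and 269 CPM on soft and 177 and 174 on stiff. Insig1 was lower in the knockout on both hydrogels (-1.16 and -1.41). On soft it had 63.1 and 63.2 CPM in the knockout against 141 and 141 in the wild type. On stiff it had 58.6 and 66.4 CPM in the knockout against 162 and 169 in the wild type. Its wild-type log2 fold change on stiff against soft was 0.24 (adjusted p = 0.00203, edgeR), under the fold-change threshold.

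The genes that supply acetyl-CoA, and the mitochondrial counterparts of the first enzymes, were not called higher. Of 9 tested, 0 rose and 3 fell on stiff in the wild type (among them Acly and Bdh1), with a median of -0.24. Over all genes tested, 10.0% rose and 9.26% fell, with a median of -0.01. Bdh1, the last enzyme of ketone body synthesis, had the lowest value at -1.43 (adjusted p = 3.46e-12, edgeR). For the thiolases, the per-length ratio within a library of Acat2 to mitochondrial Acat1 was 2.02 and 2.07 in wild-type soft, 2.86 and 2.63 in wild-type stiff and between 1.42 and 1.64 in the knockout. Acat1 had a wild-type log2 fold change of 0.24 (adjusted p = 0.0192, edgeR), under the fold-change threshold.

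**Figure D5:**
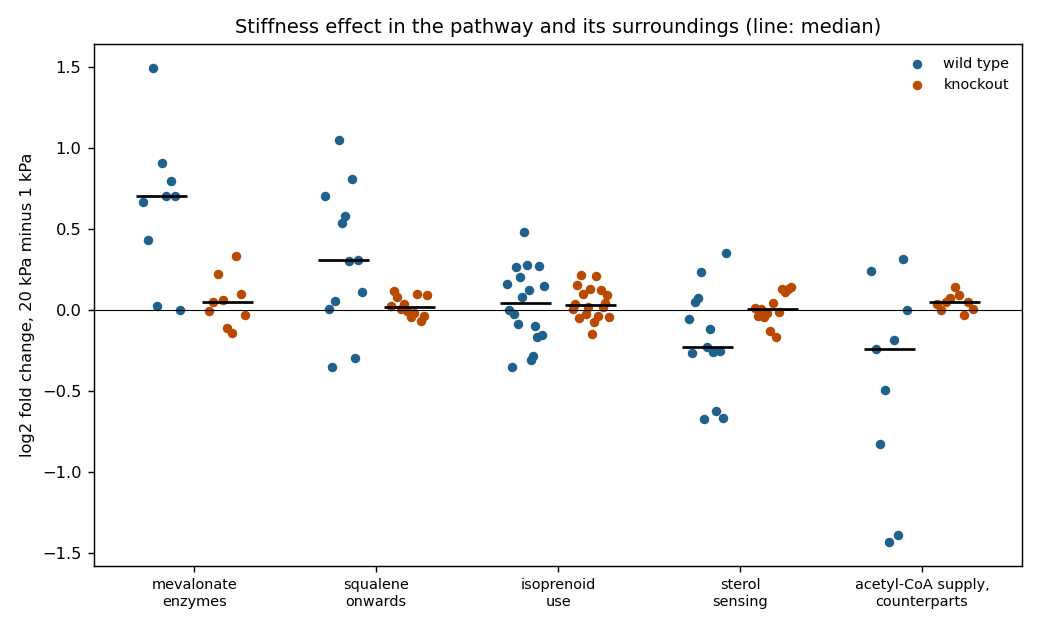
Log2 fold change on 20 kPa against 1 kPa (y axis) for the genes of 5 lists (x axis) in wild-type and knockout hepatocytes, with a point for each gene and a line at the median. The wild-type medians are 0.70 for the mevalonate enzymes, 0.31 from squalene onwards, 0.04 for isoprenoid use, -0.23 for sterol sensing and -0.24 for acetyl-CoA supply.

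The 9 genes lie on chromosomes 3, 5, 8, 13, 14 and 17 in the deposited table. It places Acat2 on chromosome 17 from 13161777 to 13179634, Hmgcs1 on chromosome 13 from 120151915 to 120169796, and Mvk on chromosome 5 from 114582330 to 114598652. Pmvk (89361848 to 89376320) and Fdps (89000895 to 89009266) are both on chromosome 3, and Mvd is on chromosome 8 from 123160340 to 123170161. Idi1 (8935537 to 8942487) and Ggps1 (14225244 to 14238073) are on chromosome 13, and Fdft1 is on chromosome 14 from 63382599 to 63417027. None of these positions equals that of the GRCm38 annotation, so they are not on the scale of the promoter coordinates given above.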

How the data were processed

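RNA sequencing of mouse primary hepatocytes gave 8 libraries in 4 groups, assigned from the sample titles. The authors aligned paired-end reads (HISAT2 2.0.5 per the submitters' processing notes, which also list the build mm9) and counted them with featureCounts, and the deposited values are raw counts per gene without normalization. The methods name dUTP in cDNA synthesis, while the labels name dUTP or dTTP. How strand and reads matching several genes entered the counting is not given in the sources used here. The deposited table also holds gene lengths and positions; 2.76% of the 52073 identifiers matched to GENCODE M21 (GRCm38) have the same position, and 0 of the 9 enzymes do, so the build of these positions was not settled.

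The fit was made in R 4.3.3 using edgeR 4.0.16 and limma 3.58.1, with filterByExpr by group, TMM scaling (factors 0.978 to 1.02) and glmQLFit over all 8 libraries with a term for each group. This left 4 residual degrees of freedom and a biological coefficient of variation of 0.0542. The fit also shares the estimate of spread between genes by empirical Bayes. The p-values and intervals therefore rest on the spread of other genes in these libraries too, and not on the 4 degrees of freedom alone. Each comparison used glmQLFTest with Benjamini-Hochberg adjustment over 14279 genes, and intervals are 95% intervals from the same fit. CPM came from edgeR's cpm function, and log2 CPM used a prior count of 2. A count of 0 allows up to 3 counts (0.113 to 0.164 CPM), which covers counting error only. Replicates differed by more than sampling noise (chi-square per degree of freedom 2.62 to 5.45), so none were merged.

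The alternatives were DESeq2 1.42.0, upper-quartile, RLE and library-size scaling, other filters and fold-change thresholds, robust empirical Bayes, a replicate block, fits of the libraries compared, and each library left out. The steps were tested on simulated data. Plots came from matplotlib 3.10.9 (Python 3.11.15).

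The text names all 9 enzymes, Yap1 and Wwtr1, the extremes in wild-type stiffness of 4 lists of related genes, with the direct counterparts of the enzymes, and the 5 genes most like Hmgcs1 and Fdps. It also names some, but not all, of the genes within 1000 bases or with shared sequence. The enzymes and lists were chosen with earlier results of these data known. The other list genes called in wild-type stiffness, the marker exceptions, and the Insig1, Ctsb and Arid4b values were chosen after their values were seen. A gene of the acetyl-CoA list is not reported here on its own.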

Additional observations from a re-analysis of the deposited data

Results flagged for a closer look

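The effect of stiffness differed between genotypes by a test of the difference itself (the interaction in edgeR's quasi-likelihood test, Benjamini-Hochberg adjusted), given here as the knockout effect minus the wild-type effect on the log2 scale. Among the pathway enzymes the differences were -0.67 for Acat2, -1.02 for Hmgcs1, -0.61 for Mvk, -0.84 for Idi1 and -1.27 for Fdps. The targeted genes differed by -0.52 (Yap1, adjusted p = 0.000253) and -0.76 (Wwtr1, adjusted p = 4.19e-05). The Yap1 call was lost to the fold-change threshold without the second knockout soft or the first knockout stiff library (-0.46 and -0.45). In the lists of related genes, the extreme members or direct counterparts differed by -1.01 (Hsd17b7, adjusted p = 2.95e-07), 0.51 (Dolk, adjusted p = 0.0106), 0.54 (Insig2, adjusted p = 2.79e-06) and 1.58 (Bdh1, adjusted p = 1.44e-10). The Dolk call lay at the fold-change threshold and was lost under DESeq2 (0.49), RLE scaling (0.49), no filter on low counts (0.48) and without either wild-type soft, the first wild-type stiff, the first knockout soft or the first knockout stiff library (0.41 to 0.49). The Insig2 call was lost without the first wild-type soft library (0.47), and that of Fdps without the second knockout soft library (-0.96, adjusted p = 0.0538).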

How the results depend on the processing

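The number of enzymes called stayed at 6 (wild-type stiffness), 0 (knockout stiffness), 5 (interaction), 4 (genotype on soft) and 8 (genotype on stiff) under DESeq2, upper-quartile, RLE and library-size scaling, robust empirical Bayes, no filter and a minimum of 10 counts. The fold-change threshold moved them. With an absolute log2 fold change over 1 they were 1, 0, 2, 1 and 5, and with no minimum the genotype effect on soft had 7. In the lists, no minimum gave 9 sterol synthesis, 5 isoprenoid, 9 sterol-sensing and 8 acetyl-CoA genes in wild-type stiffness, and a threshold of 1 gave 1 sterol synthesis and 0 sterol-sensing genes. The share of all genes called at these other thresholds is not given here. The counts therefore cannot be read as high or low for the enzymes or the lists. In wild-type stiffness 48.0% of all genes tested had an unadjusted p under 0.05 by edgeR. Replicate numbers did not pair the libraries (correlations of deviations from -0.10 to 0.04), and with the replicate block the counts were again 6, 0, 5, 4 and 8.

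Leaving out 1 library at a time, which leaves a group with 1 library assumed to vary like the others, gave 6 in wild-type stiffness, 0 in knockout stiffness, 4 to 6 in the interaction, 4 to 5 for genotype on soft, 8 on stiff, and 0 to 1 isoprenoid genes. Signs turned only for values that were not called. Pmvk in wild-type stiffness became -0.0071 (upper quartile), -0.0048 (library size only), -0.0018 (minimum of 10 counts), -0.0018 (only the libraries compared) and ranged from -0.0033 to 0.016 when a library was left out. Without 1 library the knockout stiffness values ranged from -0.083 to 0.051 for Acat2, -0.15 to 0.10 for Pmvk, and -0.091 to 0.54 for Fdps. For Ggps1 the range was -0.081 to 0.18 in the knockout, -0.00058 to 0.051 in the wild type and -0.10 to 0.16 in the interaction, for the Pmvk interaction -0.15 to 0.10, and for Yap1 in the knockout -0.11 to 0.039. Depth limits Fdps in the knockout most, with 32 to 39 counts per library.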
